A study of Homo sapiens with 14 samples.

Results

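Intronic peaks that were called only after dTAG-V1 treatment are described here. These are peaks of the dTAG-V1 list of the Proteintech anti-ZNF143 antibody that overlap no peak of the untreated list by 1 bp, whose centre lies outside the window from 2 kb upstream to 1 kb downstream of the TSS of every annotated gene, inside the body of a protein-coding gene and in no exon of a canonical transcript of such a gene. By this rule 8789 peaks were selected on their presence in 1 list and absence from the other, out of 13229 intronic non-promoter peaks and 35287 peaks in all of the dTAG-V1 list. The share of peaks without an untreated overlap was 66.4% among the intronic peaks and 57.8% in the whole list, and since the rule uses this contrast, nothing is read from it.

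The cells were HEK293T, an established human embryonic kidney line, in which ZNF143 carries the FKBP12F36V tag. All libraries come from 1 clone of this tagged line (HEK_CloneZD29), so that untreated cells carry the tag as well. Of the 14 samples of the series, 8 stand behind the lists used here, 4 without treatment and 4 with 0.5 µM dTAG-V1 for 30 min, and the CTCF samples were not analysed here. The authors deposited 1 list per condition without replicate values, so that no difference between conditions can be compared with replicate spread, and all intervals given are 95% intervals for counting error over peaks only.

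ZNF143 is a zinc finger transcription factor that binds promoters through a long motif known as the SBS, found in the forms SBS1 and SBS2. dTAG-V1 is a small molecule that couples the FKBP12F36V tag to the VHL ubiquitin ligase, so that the tagged protein is degraded. CTCF is another zinc finger protein, which binds a motif of about 19 bases in a fixed orientation and halts the cohesin complex during the extrusion of chromatin loops. Many CTCF sites lie in introns, the parts of a gene that are transcribed and then spliced out. Whether a peak of an antibody in an intron carries the SBS, the CTCF motif or neither is therefore a description of what kind of site the antibody recovered.

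The sequences below show the best CTCF match in 8 of these peaks, read from hg38 with the 19 bases of the match in capitals and 15 bases on either side in lower case, 5′ to 3′ on the strand of the match. They were chosen because they are among the strongest peaks (CCDC51, ELN, STAT3), the strongest matches (NOS2, KDM2B) or are the peaks of the group in TCEANC2 and SNRNP70.
CCDC51: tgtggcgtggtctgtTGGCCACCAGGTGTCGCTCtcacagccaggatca
ELN: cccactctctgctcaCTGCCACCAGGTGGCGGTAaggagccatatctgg
STAT3: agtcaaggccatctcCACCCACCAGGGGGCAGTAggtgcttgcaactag
NOS2: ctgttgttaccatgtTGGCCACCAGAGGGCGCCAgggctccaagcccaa
KDM2B: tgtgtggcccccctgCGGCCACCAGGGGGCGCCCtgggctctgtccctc
TCEANC2, first peak: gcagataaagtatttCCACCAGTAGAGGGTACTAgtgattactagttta
TCEANC2, second peak: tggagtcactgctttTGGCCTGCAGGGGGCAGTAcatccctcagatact
SNRNP70: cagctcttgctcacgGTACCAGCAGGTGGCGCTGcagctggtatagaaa

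The CCDC51 match is at chr3:48436184-48436202, the ELN match at chr7:74068003-74068021, the STAT3 match at chr17:42322911-42322929, the NOS2 match at chr17:27760210-27760228 and the KDM2B match at chr12:121500063-121500081. The matches in TCEANC2 are at chr1:54070285-54070303 and chr1:54081835-54081853, both in intron 3, and that in SNRNP70 is at chr19:49106839-49106857 in intron 8. The strongest peak in which no CTCF match was found anywhere lies in CIITA, the master activator of MHC class II genes.

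The height of a peak can be read back from the deposited values. MACS2 writes the fold enrichment as the number of fragments covering the summit plus 1 over the local background plus 1, and writes a Poisson p-value of the same pair, so that both together give a whole number of fragments and a local background for 100% of the peaks of each list. The background of the genome, which reflects the depth, was 14.07 fragments per base for untreated cells and 13.76 after dTAG-V1, a ratio of 0.978. The 8789 peaks had a median of 53 fragments at the summit, from 30 to 362, over a median local background of 16.3 and with a median fold enrichment of 2.85, from 1.55 to 9.21. Their median width was 338 bp, from 216 to 1979 bp. They lay low in the list from which they were chosen, with 16 among the 3528 peaks of its highest decile by −log10 q and 1393 among the 3529 of its lowest. The highest of them had rank 1731 of the whole list.

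A peak that is missing from the untreated list can have been just under its threshold there. At the genome background, the lowest number of fragments that was called was 31 in the untreated and 30 in the dTAG-V1 list. For each of the 8789 peaks, the number of fragments that would have sufficed in the untreated list was computed, assuming the same local background relative to that of the genome, with a median of 35. The height in the dTAG-V1 list over this number, both relative to the genome background, is then the smallest increase that the absence of a call allows. Its median was 1.43-fold, with quartiles of 1.21 and 1.76. It exceeded 1.5-fold in 3856 peaks (43.9%) and 2-fold in 1124 (12.8%), and was under 1 in 32, so that for most peaks of the group the lists leave room for a change of less than 1.5-fold. These numbers describe the choice of the peaks and are no test. The increases hold only if the lists were not also filtered over replicates.

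CTCF matches were counted within 100 bp of the summit at a hit p-value of 1e-05, with a matrix learned from peaks that both lists share on odd-numbered autosomes, and therefore from none of the peaks described. A CTCF match was present in 3961 of the 8789 peaks, or 45.1% (44 to 46.1). In windows of the same width 1 kb to either side it was present in 1.71% (1.53 to 1.91), a difference of 43.4 percentage points (42.3 to 44.4). Among 582482 windows of the same width spread over the intron sequence that the rule admits, 1.36% had a CTCF match. The SBS was found in 379 of the peaks, or 4.31% (3.91 to 4.76), compared with 5.07% of the flanks and 3.69% of the intron windows. The difference from the flanks was −0.762 percentage points (−1.29 to −0.217), and its interval included 0 under 4 of the 8 alternatives tried. Both motifs occurred together in 213 peaks, the SBS alone in 166, CTCF alone in 3748 and neither in 4662.

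**Figure D1:**
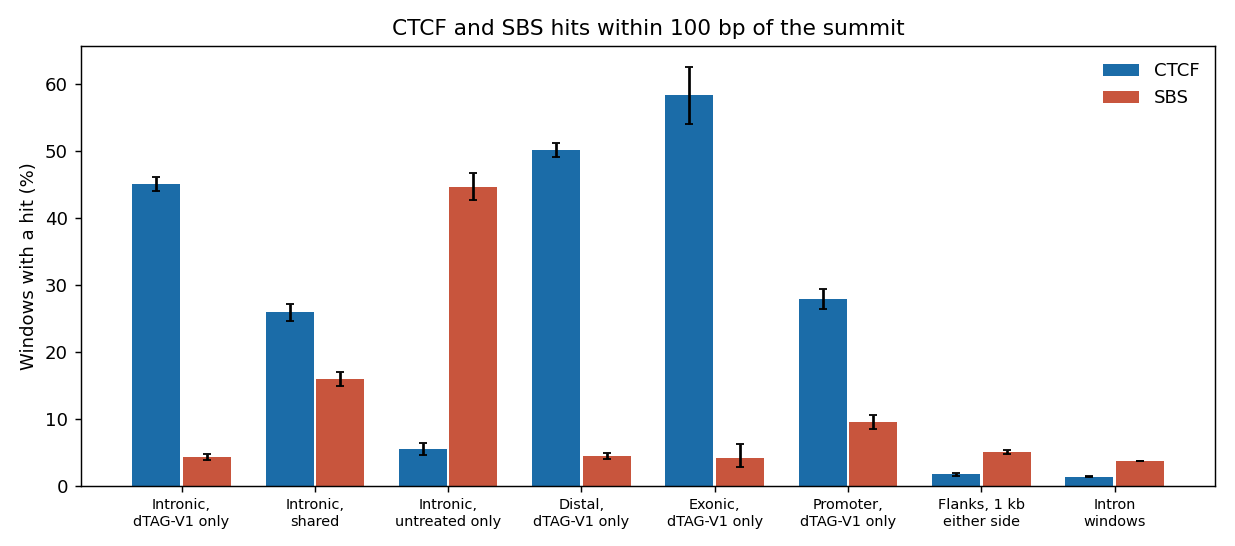
Share of windows (%, vertical axis) with a CTCF (blue) or SBS (red) match within 100 bp of the summit, for the intronic dTAG-V1-only peaks, 5 other sets of peaks, the flanks 1 kb away and intron windows, with 95% Wilson intervals. CTCF stands at 45.1% in the intronic dTAG-V1-only peaks and SBS at 4.31%, while the intronic untreated-only peaks have 5.41% and 44.6%.

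Compared with the other sets of peaks, the dTAG-V1-only peaks in introns differed most from intronic peaks of the untreated list alone. Of these 2198 peaks, 5.41% had a CTCF match and 44.6% an SBS, so that the intronic dTAG-V1-only peaks had 39.7 percentage points more CTCF (38.2 to 41.0) and an SBS difference of −40.3 percentage points (−42.4 to −38.2). The 4440 intronic peaks that overlap an untreated peak lay in between, with 25.9% CTCF and 15.9% SBS. The CTCF difference from these was 19.2 percentage points (17.5 to 20.8). The CTCF share also differed by location among dTAG-V1-only peaks. The 7841 distal dTAG-V1-only peaks outside gene bodies and the 503 exonic ones had more CTCF matches than the intronic ones, with 50.1% and 58.3%. Here the differences were −5.02 (−6.53 to −3.50) and −13.2 percentage points (−17.5 to −8.70). At promoters, 27.8% of the dTAG-V1-only peaks had a CTCF match and 9.48% an SBS. For the SBS, the difference of −0.164 percentage points between intronic and distal dTAG-V1-only peaks had an interval from −0.793 to 0.459.

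Heights could also be compared directly at the shared intronic peaks, where both lists give a number of fragments, each at its own summit. At the 1001 shared intronic peaks with a CTCF match and no SBS, the summit height relative to the genome background was higher with dTAG-V1 by a median of 1.52-fold (quartiles 1.25 and 1.79) and was above that of the untreated list in 88.6%. At the 558 with an SBS and no CTCF match it was lower, with a median ratio of 0.294 (quartiles 0.204 and 0.537), from a median of 594 fragments in the untreated to 116.5 in the dTAG-V1 list. The 2733 shared intronic peaks with neither had a median ratio of 1.13. Shared peaks had to pass the threshold in both lists, which limits how far the ratio could fall or rise. Among the dTAG-V1-only peaks themselves, the smallest increase allowed was a median of 1.74-fold with a CTCF match and 1.25-fold without. No untreated height exists for these peaks. Both values come from the dTAG-V1 heights and the computed threshold, restate that matched peaks were higher in that list, and are no test.

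The share of CTCF matches followed the strength of the peak. When the 8789 peaks were divided into deciles by −log10 q, 87.0% (84.6 to 89.1) of the highest decile had a CTCF match, 50.5% of the fifth, and 5.35% (4.04 to 7.04) of the lowest, in which −log10 q was at most 3.52. The SBS share fell in the same direction over a smaller range, from 6.95% (5.45 to 8.82) in the highest decile to 3.53% (2.50 to 4.96) in the lowest. GC content moved along with strength, from a mean of 47.0% in the windows of the highest decile to 38.4% in those of the lowest, and its part in the trend was not tested. With a CTCF match, peaks had a median of 59 fragments at the summit and a fold enrichment of 3.51, and without one they had 47 and 2.48. Within the matched peaks, the score of the match and the fold enrichment had a rank correlation of 0.306 over 3961 peaks, all from the same list. With the number of fragments at the summit, the rank correlation of the score was lower, at 0.149. Even when the whole peak was searched at the looser hit p-value of 5e-05, 3872 peaks (44.1%) had no CTCF match, and 3262 (37.1%) had neither motif. Such peaks made up 4.44% of the highest decile and 76.0% of the lowest.

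**Figure D2:**
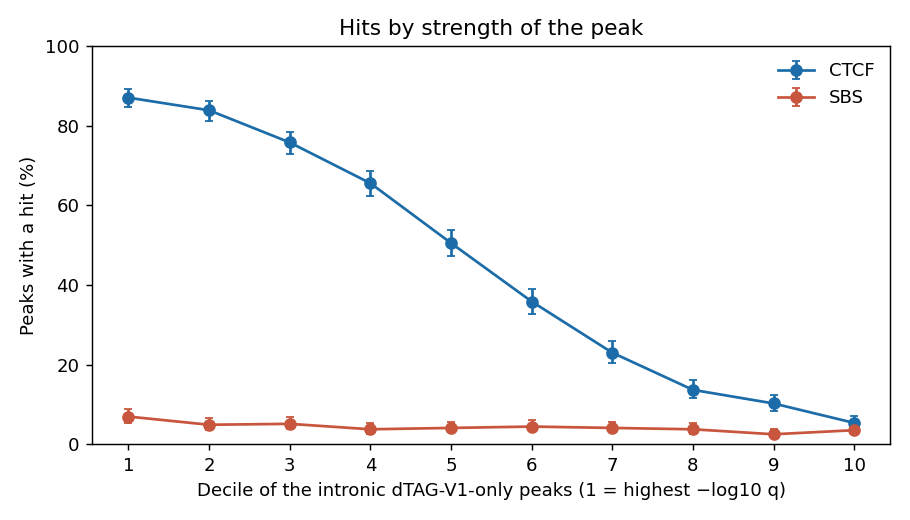
Share of the intronic dTAG-V1-only peaks (%, vertical axis) with a CTCF (blue) or SBS (red) match, in deciles by −log10 q (horizontal axis, 1 is the highest), with 95% Wilson intervals. CTCF falls from 87.0% to 5.35%, while SBS stays between 2.50% and 6.95%.

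**Figure D3:**
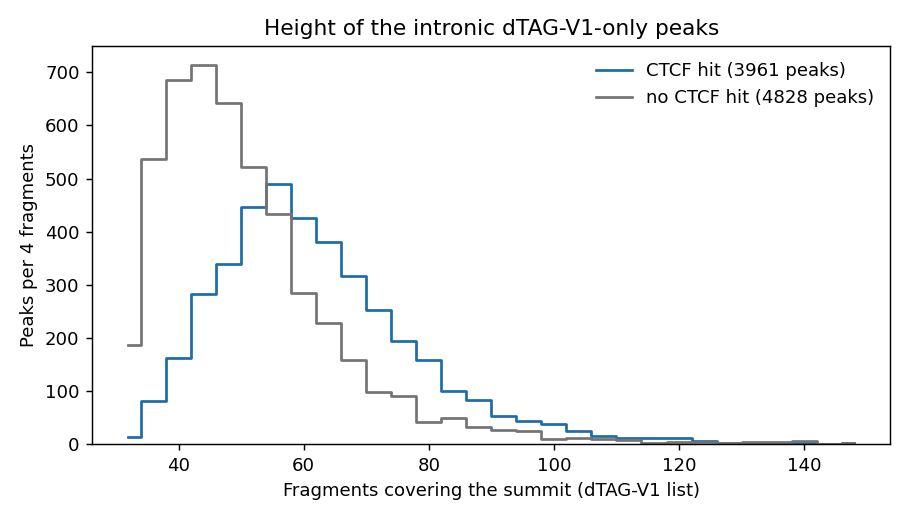
Number of intronic dTAG-V1-only peaks (vertical axis, per 4 fragments) by the number of fragments covering the summit (horizontal axis), for the 3961 peaks with a CTCF match (blue) and the 4828 without (grey). The medians are 59 and 47 fragments, and the 11 peaks of 150 fragments or more are not drawn.

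The matches sat at the summits. Of 4144 peaks with a CTCF match anywhere in the peak, 88.1% (87.1 to 89.0) had its centre within 50 bp of the summit, where 30.4% would be found if matches were placed evenly over the same peaks. The median distance was 16 bp. For the 604 peaks with an SBS match, 33.4% (29.8 to 37.3) lay within 50 bp, against 28.3% for even placement, with a median distance of 76.5 bp. Most of the 4144 peaks with a CTCF match held a single one. Among them, 3968 peaks held 1, 164 held 2 and 12 held 3 or more that do not overlap.

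**Figure D4:**
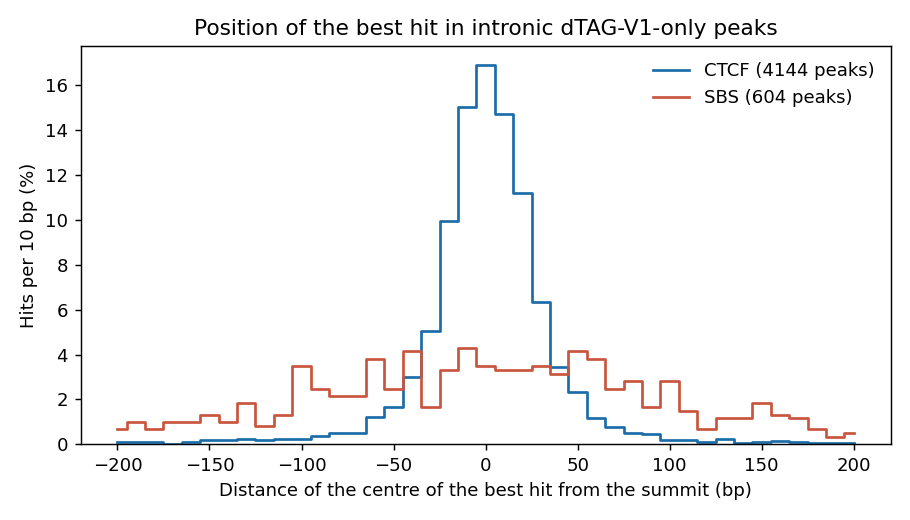
Distance of the centre of the best match from the summit (bp, horizontal axis) in intronic dTAG-V1-only peaks, as the share of matches per 10 bp (%, vertical axis), for CTCF (blue, 4144 peaks) and SBS (red, 604 peaks). Within 50 bp of the summit lie 88.1% of the CTCF and 33.4% of the SBS matches.

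CTCF sites have a direction, and so do the genes that contain them. The match was on the same strand as the host gene in 1902 of the 3961 peaks, or 48.0% (46.5 to 49.6). However, in the intron windows with a CTCF match this share was 47.9% (46.8 to 49.0), so that the small departure from 50% was also present in intron sequence without regard to peaks. For the peaks, the share was 47.0% in first introns and 47.0% in later introns. The 566 matches outside the canonical transcript are in neither of these and had a higher share.

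The letters of the matches were compared with those of other sets. Of the CTCF matches in intronic dTAG-V1-only peaks, 65.5% (64.0 to 67.0) also passed a hit p-value of 1e-06, compared with 70.2% (67.5 to 72.8) of the matches in shared intronic peaks and 17% of those in intron windows. The share was 67.3% (65.8 to 68.7) for distal and 74.4% (69.1 to 79.1) for exonic dTAG-V1-only peaks. The matrix was learned from shared peaks on odd-numbered autosomes at 1e-06, so shared intronic matches include sites it was learned from. What this adds to the comparisons of letters with shared peaks was not tested. The CTCF core can contain a CpG at position 15 of the 19 bases, as in the GCG of the NOS2 and KDM2B matches above. A CpG was present there in 917 matches, or 23.2% (21.9 to 24.5). Among the matches of shared intronic peaks the share was 32.1% (29.5 to 34.9), a difference of −8.96 percentage points (−12.0 to −6.01). It was 26.3% for distal dTAG-V1-only peaks and 11.7% for intron windows. A second, shorter module that CTCF contacts upstream of its core was searched as TGCANTNCC in the 40 bases before the match on the same strand. It was found at 45 of the 3961 matches, or 1.14% (0.850 to 1.52), and at 0.317% (0.215 to 0.467) of the matches in intron windows. The matches of shared intronic peaks, with 1.13% (0.662 to 1.93), and of distal dTAG-V1-only peaks, with 1.17% (0.879 to 1.56), had it at a similar rate. Of the 45 sites, 38 started 14 or 15 bases before the core.

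The position within the gene separated peaks with and without a CTCF match. Of the 8789 peaks, 2126 (24.2%, 23.3 to 25.1) were in the first intron of the canonical transcript, 5495 in later introns, and 1168 inside the gene body but outside the canonical transcript. First introns made up 20.7% of the intron sequence that the rule admits, so that the peaks exceeded it by 3.44 percentage points. This excess was lost when only peaks with −log10 q of at least 5 were kept, where the difference was −0.394. It was also not particular to this group. Of the shared intronic peaks, 24.8% (23.5 to 26.1) were in first introns, and of the intronic untreated-only peaks 31.9% (30.0 to 33.9). Among the intronic dTAG-V1-only peaks, CTCF matches were present in 28.8% of those in first and 50.6% of those in later introns. The difference was −21.8 percentage points (−24.1 to −19.4). Put the other way round, 15.5% (14.4 to 16.6) of the peaks with a CTCF match but 31.3% (30.0 to 32.7) of those without were in first introns. Mean GC content was similar in first and later introns, with 42.7% and 42.5%, whereas the windows held a mean of 3.09 and 2.55 CpG dinucleotides. The median local background was 17.5 fragments in first and 15.9 in later introns, and the median height 50 and 53 fragments. The part of peak strength in the CTCF difference between first and later introns was not tested.

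First introns lie closer to promoters. When peaks were grouped by distance from the start of the host gene, the CTCF share in first introns was 24.1% between 1 and 10 kb, compared with 50.4% in later introns, a difference of −26.3 percentage points (−32.1 to −20.4). Between 10 and 50 kb it was −24.5 (−28.6 to −20.3) and between 50 and 200 kb −19.7 (−24.4 to −14.7). Beyond 200 kb, where only 100 peaks were in first introns, the difference was −4.37 with an interval from −13.8 to 5.75. The shared intronic peaks differed in the same direction, with 15.7% in first and 29.7% in later introns.

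**Figure D5:**
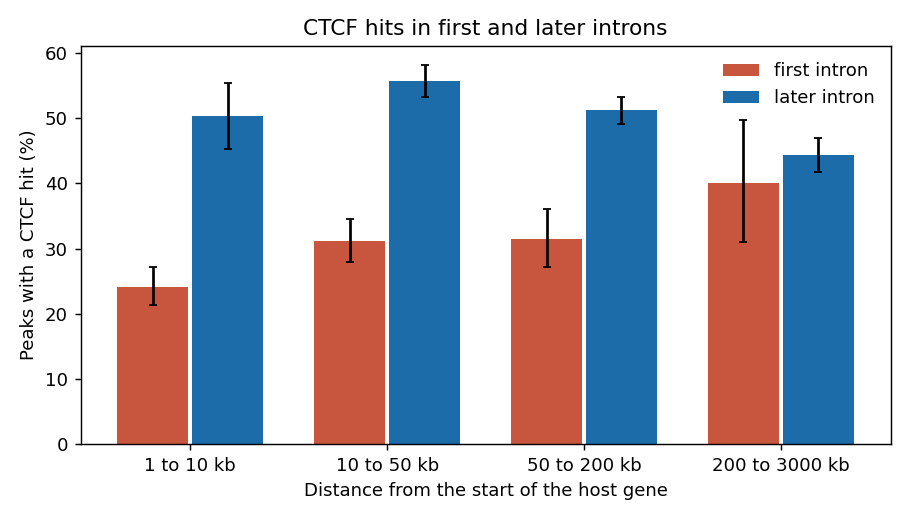
Share of intronic dTAG-V1-only peaks with a CTCF match (%, vertical axis) in the first (red) and later (blue) introns of the host gene, by distance of the peak centre from the gene start (horizontal axis), with 95% Wilson intervals. Between 1 and 10 kb the shares are 24.1% and 50.4%, and only beyond 200 kb do the intervals overlap.

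The label intronic was checked against the whole annotation. Of the 8789 peaks, 471 (5.36%) had their centre in an exon of another annotated transcript, compared with 3.27% of the admitted sequence, and 1471 (16.7%) lay in the TSS window of another transcript, compared with 8.94%. Judged by the summit in place of the centre, 8676 of the peaks kept the same class and 87 were exonic. Removing all peaks outside canonical introns, in other exons or in other TSS windows left 6208, with a CTCF share of 44.7% (43.5 to 46.0). Peaks in the TSS windows of other transcripts had a CTCF share of 39.4% (37.0 to 42). Of all peaks, 413 (4.70%) had 10 or more CpG dinucleotides within 100 bp of the summit, against 1.43% of the intron windows. In these 413 the SBS share was 19.9% (16.3 to 24.0), compared with 3.55% (3.17 to 3.96) in the others. Their CTCF share was higher as well, with 54.7% (49.9 to 59.5) compared with 44.6% (43.5 to 45.7). Mean GC content was 61.8% and 41.9%. No SBS share of flanks or intron windows as rich in CpG is given, so the part of base composition was not tested.

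Introns differ greatly in length, and the peaks lay in shorter introns and closer to splice sites than the intron windows. The median intron with a peak was 20.7 kb long and 27.5 kb for the intron windows, and the median distance to the nearest end of the intron was 3.13 kb and 5.22 kb. Within 1 kb of an intron end lay 26.8% (25.8 to 27.8) of the 7621 peaks in canonical introns and 20.8% of the windows. The part of intron length in this difference was not tested. The nearest untreated peak was a median of 30.4 kb away. In the 398 peaks within 1 kb of an untreated peak, 13.3% (10.3 to 17) had a CTCF match, and in the 1462 peaks more than 100 kb away 52.9% (50.4 to 55.5).

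The boundary of the rule can be seen at single peaks. The peak of the group closest to an untreated peak was in FCRLB, an Fc receptor-like gene, at chr1:161726007-161726984, and ended at the base before an untreated peak began. It had 45 fragments and its untreated neighbour 99. In MRTFA, a coactivator of SRF, the gap was 3 bp, with 40 fragments and 36 in the untreated neighbour, and in PC, which encodes pyruvate carboxylase, it was 8 bp, with 38 and 41. On the other side of the rule, peaks in B3GLCT, OMA1 and DSC3 counted as shared through overlaps of 2, 6 and 6 bp, with 42, 41 and 97 fragments against 32, 41 and 81 in the untreated list.

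The 10 highest scores belonged to peaks in HDGF, CCDC51, CIITA, NDFIP2, ELN, ST6GALNAC3, GIPC2, STAT3, FHOD3 and PDE4B. The highest was in HDGF, a heparin-binding growth factor, with a score of 2108, 362 fragments over a local background of 38.4 and a fold enrichment of 9.21, at chr1:156751745-156752407. It lies outside the canonical transcript, in an exon and a TSS window of other transcripts, and the window of 100 bp to either side of its summit holds 25 CpG dinucleotides. Its CTCF match was weak, with 12.4 bits, and lay 61 bp from the summit. CCDC51, which encodes a mitochondrial protein, was next in order with 160 fragments in intron 1 of 3 and a match of 21.9 bits 22 bp from the summit.

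The CIITA peak had 124 fragments over the genome background, a fold enrichment of 8.47, and lay 67.0 kb from the nearest untreated peak, outside the canonical transcript and in the TSS window of another one. The other peaks among the 10 had from 112 to 207 fragments. NDFIP2, an adaptor of NEDD4 ubiquitin ligases, had 207 over a local background of 47.6. ELN, which encodes elastin, had 114 in its last intron, with a match of 25.3 bits 15 bp from the summit. STAT3, a cytokine-activated transcription factor, had 112 in intron 20 of 23, with a match of 23 bits 11 bp from the summit on the strand opposite to the gene. PDE4B, a cAMP phosphodiesterase, had 144, and the sialyltransferase gene ST6GALNAC3 138. GIPC2, a PDZ domain protein, had 156. The formin gene FHOD3 had 145 and no match at 1e-05. In all, 8 of the 10 had a CTCF match at 1e-05 somewhere in the peak, and 4 of the 10 (HDGF, STAT3, FHOD3 and PDE4B) had an SBS match at 5e-05. Searched over the whole peak at 5e-05, 610 of all 8789 peaks had an SBS match alone and 1279 had both motifs.

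The 5 strongest CTCF matches, with 29.1 to 29.7 bits, did not mark the 5 highest peaks. They were in GABRR3, a GABA receptor subunit gene, with 101 fragments, KDM2B, a histone demethylase, with 113, DPEP2, a dipeptidase, with 49, the inducible nitric oxide synthase gene NOS2 with 75 and the argininosuccinate synthase gene ASS1 with 58. The DPEP2 peak was in intron 1 of 10, but also in an exon and a TSS window of other transcripts, and the same window held 22 CpG dinucleotides. Of the peaks with no CTCF match in the whole peak, CIITA was followed by SGPP2, a sphingosine phosphatase, with 99 fragments, the retinoic acid receptor gene RARB with 124, LRMDA with 123 and CLYBL, a mitochondrial lyase, with 124. None of these 5 had an SBS match at 5e-05 either, which 610 of the 3872 peaks without a CTCF match had. The peaks in TCEANC2 had 64 and 110 fragments and lay 16.3 and 27.9 kb from the nearest untreated peak, and that in SNRNP70, which encodes a protein of the U1 snRNP, had 51.

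What the peaks without a CTCF match share was searched with 10 fixed patterns, on both strands within 100 bp of the summit. The GATA pattern AGATAAG was present in 278 of these 3872 peaks, or 7.18% (6.41 to 8.04), compared with 2.74% of their flanks and 2.86% of intron windows, and in 2.2% of the peaks with a CTCF match. The AP-1 pattern TGANTCA was present in 8.24% (7.41 to 9.15), compared with 5.84% of the flanks and 6.13% of intron windows. Other peaks without a CTCF match had AP-1 at least as often, with 9.15% of shared intronic and 8.94% of distal dTAG-V1-only peaks. Intronic untreated-only peaks without a CTCF match had 12.8%, a difference of −4.57 percentage points (−6.37 to −2.86). The GC box GGGGCGGGG was found in 0.232% of the 3872 peaks, compared with 1.18% of the flanks and 0.253% of intron windows. For the E-box CACGTG, CRE TGACGTCA, ETS ACTTCCGG, NRF1 GCGCATGCG, YY1 GATGGCGGC, TEAD GGAATGT and RUNX TGTGGTTT, the interval of the difference from the flanks included 0.

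Ranked without a fixed pattern, the leading 8-mers in the peaks without a CTCF match were CAATAAAA, ATAAATCA, TGATGCAA, CATAAATC and GCAATAAA, each read on both strands. ATAAATCA, whose other strand reads TGATTTAT, is the textbook sequence of HOX proteins bound together with PBX, and TGATGCAA that of C/EBP and ATF heterodimers. At least 1 of the 5 was present in 521 of the 3872 peaks, or 13.5%, against 5.07% of the flanks, but since they were ranked on these peaks the excess is a description. Shared intronic peaks without a CTCF match had at least 1 of them more often, with 17.4%, a difference of −3.92 percentage points (−5.75 to −2.13). In intronic untreated-only peaks without a CTCF match they were at 6.43%, close to the 5.89% of the flanks there. AGATAAG was found in 9.34% of the shared peaks without a CTCF match, a difference of −2.16 percentage points (−3.57 to −0.801). Any of the 5 8-mers, AP-1 or GATA was present in 1009 of the peaks (26.1%), but also in 13% of their flanks. Among other peaks without a CTCF match, the share was 31.6% in shared intronic and 24.4% in distal dTAG-V1-only peaks. In intronic untreated-only peaks it was 22.6%. The letters of most peaks without a CTCF match thus remained undescribed. These sequences mark no bound factor by themselves, and expression of these factors was not measured here.

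The peaks were spread over 4800 host genes, 26.3% of the 18264 protein-coding genes with admitted sequence. A single peak was found in 2965 of them (61.8%), 2 in 988 and 10 or more in 42, which together held 546 peaks (6.21%). A host gene could not be assigned uniquely for 417 peaks that lie in more than 1 gene. On average there were 7.51 peaks per Mb of admitted sequence, from 3.58 on chromosome 2 to 11.4 on chromosome 22. The CTCF share ranged from 31.9% on chromosome 13 to 54.8% on chromosome 20. The median gap to the nearest other peak of the group was 43.1 kb, and 269 peaks (3.06%) had another within 1 kb.

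The genes with most peaks were PCDH9, GMDS, GPC5, ROBO1 and PDE4D, all long genes. PCDH9, a protocadherin of neurons on chromosome 13, held 29 peaks, of which 1 had a CTCF match. These peaks had from 81 to 165 fragments with a median of 119, but fold enrichments between 1.57 and 2.33 only, over a high local background. The median of this background was 66.3 fragments, 4.82 times the background of the genome, and at the 20 intronic untreated peaks of PCDH9 it was 62.2, 4.42 times that of the genome. GMDS, the first enzyme of GDP-fucose synthesis, held 24 peaks with 2 CTCF matches, and GPC5, a glypican, 20 with 5. Their median local backgrounds were 1.76 and 2.56 times that of the genome. ROBO1, a receptor of Slit proteins, had 19 peaks and the phosphodiesterase gene PDE4D had 18, each with 9 CTCF matches. In all 5 genes, the median local background exceeded that of the genome in both lists. Across all peaks, those at the genome background had a CTCF share of 59.7%, and the 514 with more than 2 times that background 18.7%. The part of the background in the number of peaks per gene was not tested.

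Gene groups were compared by the share of their genes that hold at least 1 peak, which depends on gene length. Of all protein-coding genes with admitted sequence, 26.3% held a peak, and their median length was 32.0 kb. The median was 81.6 kb for the cohesin and CTCF list, 72.9 kb for histone lysine methyltransferases and demethylases and 102 kb for receptor tyrosine kinases. Cohesin and CTCF genes, which encode the loop extrusion machinery, held peaks in 6 of 14 genes, with 13 peaks or 7.48 per Mb, close to the 7.51 of all protein-coding genes. PDS5B, which regulates the release of cohesin, had 4, and the acetyltransferase gene ESCO1 and the loader gene NIPBL had 2 each. STAG1 and STAG2, which encode cohesin subunits, had as many as ESCO1 and NIPBL. Histone lysine methyltransferases and demethylases held peaks in 20 of 38 genes (9.44 per Mb), with 4 peaks in KDM6A, 4 in KMT2C and 2 in KDM2A, and 8 of the 34 peaks in the list (23.5%) had a CTCF match, compared with 45.1% of all peaks, 7 of the 13 in the cohesin and CTCF list and 12 of the 41 (29.3%) in the receptor tyrosine kinase list. Receptor tyrosine kinases held peaks in 17 of 30 genes (7.54 per Mb), led by IGF1R, the receptor of insulin-like growth factors, with 10 peaks and 1 CTCF match, ROR2 with 5 and NTRK2 with 4.

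Neurexins, contactins and cadherins, adhesion molecules with long genes, held peaks in 13 of 37 genes but only 2.42 per Mb, with 12 in CNTNAP2, 7 in CDH12 and 3 in CDH23, and 17 of their 40 peaks had a CTCF match. Of nuclear-encoded mitochondrial genes, only those with symbols starting with MRPL, MRPS or NDUF were listed, which leaves out others such as CLYBL. Of these 114 genes, 20 held peaks (9.52 per Mb), with 3 in MRPS22 and 2 each in MRPS28 and NDUFAF6. A CTCF match was present in 13 of their 25 peaks. Zinc finger genes of chromosome 19 held peaks in 3 of 238 genes, ZNF565, ZNF627 and ZNF846, or 0.557 per Mb, and 2 of these 3 peaks had a CTCF match. For genes of 500 kb or more the numbers were 246 of 323 genes and 5.09 peaks per Mb, with a CTCF match in 512 of 1309 peaks (39.1%). Long genes thus often held a peak, but had fewer per Mb than the average gene. These are counts of lists without a test.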

How the data were processed

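ChIP-seq with the Proteintech antibody was performed on 4 untreated and 4 dTAG-V1 treated samples of tagged HEK293T cells. Per the methods, the authors mapped read pairs to hg38 with bwa mem, kept proper pairs with SAMtools, removed duplicates with Picard and called narrow peaks with MACS2, with no control named, keeping canonical chromosomes outside the blacklist. For each peak the deposited lists hold a score, which is 10 times the −log10 q-value cut to a whole number, a fold enrichment ratio over the local background, the −log10 p-value and the −log10 q-value of the summit, and the position of the summit, which is the authors' value in bases. Each list was solved with 1 genome background, as for a single call per condition. The methods describe a rule over replicates. Untreated peaks had to be found in each of the 4 replicates, but dTAG-V1 peaks in any of the 4. Whether the deposited lists were filtered by it is not given in the sources used here. If they were, a site called in only some untreated replicates would be missing from the untreated list. Peak names of the untreated list refer to DMSO, and the labels were followed.

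The members of the group, the gene lists and the patterns were chosen with earlier results of these data known. Peaks were annotated with GENCODE release 44, overlapped at 1 bp and searched with 3 matrices (CTCF, SBS1, SBS2) learned from shared peaks, using pysam 0.24.0, numba 0.67.0, scipy 1.17.1, pandas 2.3.3 and numpy 2.4.6 in Python 3.11.15. SBS is a match to SBS1 or SBS2. Shares have 95% Wilson and differences 95% Newcombe intervals. Fragments are reads as MACS2 extended them. Pileup recovery, intervals and the motif search were tested on simulated data. Named are the host genes of the 10 highest scores, the 5 genes with most peaks, the 5 strongest CTCF matches, the 5 highest scores without one, the 3 peaks on either side of the overlap rule, peaks in TCEANC2 and SNRNP70 and up to 3 genes per list. STAG1 and STAG2 are named in addition because they tie with ESCO1 and NIPBL. The 8 alternatives for the motif shares were hit p-values of 1e-06 and 5e-05, whole peaks, a fixed consensus, even-numbered autosomes, a reciprocal overlap of 50%, a gap of 1 kb and −log10 q of at least 5.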

Additional observations from a re-analysis of the deposited data

How the results depend on the processing

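The lists limit the results more than the settings do. No paired analysis was possible because the lists hold no replicate columns, and for the same reason no replicate could be left out. The comparison of repeat-masked sequence was not run, because the genome used carries no mask. The number of peaks stayed within 1.5 times of 8789 under every alternative. Of 50 differences recomputed, 45 kept their direction and their side of 0. The exceptions were the SBS difference from the flanks, which kept its direction but had an interval including 0 at a hit p-value of 1e-06 (−0.0626 percentage points), with the fixed consensus (−0.267), with reciprocal overlap (−0.164) and with −log10 q of at least 5 (−0.208), and the first intron excess, which turned to −0.394 percentage points with −log10 q of at least 5, where the weakest peaks are absent.

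The CTCF share was 29.5% at a hit p-value of 1e-06, 52.1% at 5e-05, 47.1% in whole peaks, 29.3% with the fixed consensus, 43.4% with reciprocal overlap, 46.6% over 1 kb from untreated peaks, 57.8% with −log10 q of at least 5 and 46.2% with TSS windows around every transcript, an alternative chosen after seeing the data. The SBS share was 0.762%, 13.6%, 6.87% and 1.22% under the first 4 of these, 4.88% with reciprocal overlap and 3.70% on even-numbered autosomes. Matches within 50 bp of the summit rose to 91.5% at 1e-06 and 90.2% with −log10 q of at least 5. The share on the strand of the host gene was 48.2% at 1e-06, with an interval that included 50%.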
